A study of Mus musculus with 76 samples.

Results

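The data described here are the levels of 10 glucocorticoid-induced genes, out of 20710 genes measured, in lung septa and lung vessels from a study of NOXO1, an organiser subunit of an NADPH oxidase, in a mouse model of emphysema and pulmonary hypertension caused by cigarette smoke. The genes were Fkbp5, Tsc22d3, Klf15, Zbtb16, Angptl4, Pdk4, Sgk1, Klf9, Errfi1 and Dusp1. They were found by symbol among the annotated features of a single-colour microarray, on which each had 1 probe. The set was put together with earlier results of these arrays known, and the comparison that led to it is not recorded. Its adjusted p-values therefore describe these arrays and are not independent evidence.

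Septa and vessels were microdissected from the lungs of 40 mice, and 76 arrays were analysed: 39 of septa from 39 mice and 37 of vessels from 36 mice. Both tissues were measured in 35 mice. The 16 groups, of 4 to 5 arrays each, combined genotype (wild type or Noxo1 knockout), exposure (control or smoke), time (3 or 8 months) and tissue. All mice, wild type included, are listed under the strain C57BL/6-Noxo1(tm1881_17.2Arte), and were kept at 5 per cage. Exposure to Kentucky 3R4F cigarette smoke at 140 mg/m3 of particles began in week 12 of age and ran 6 h per day on 5 days per week. The protocol states 8 months for all mice, whereas the sample titles give 3 or 8 months, which are used here. What the control mice breathed is not described in the labels. Mice of 8 months were also older than those of 3 months, so age and time in the experiment cannot be told apart, and the labels give no array batch. The RNA was amplified from small amounts of tissue before labelling, and all values are log2 signals as deposited.

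Glucocorticoids cross the cell membrane and bind the glucocorticoid receptor, encoded by Nr3c1, which moves to the nucleus and binds DNA at short palindromic elements near its target genes. In lung tissue the enzyme encoded by Hsd11b1 regenerates active hormone from its inactive form, with a cofactor supplied through H6pd. The hormone follows a daily rhythm and rises with stress and fasting, and in the lung its targets include anti-inflammatory proteins, metabolic enzymes and regulators of ion transport. Several of these genes also answer to other signals. Fkbp5 encodes a chaperone that holds the receptor in its low-affinity state, as feedback. Tsc22d3 encodes GILZ, an anti-inflammatory leucine zipper protein, and Dusp1 a phosphatase that inactivates MAP kinases. Klf15, Klf9 and Zbtb16 encode zinc finger transcription factors. Angptl4 encodes a secreted inhibitor of lipoprotein lipase, and Pdk4 a kinase that shuts off pyruvate dehydrogenase in fasting and fat oxidation; both are also PPAR targets. Sgk1 encodes a kinase that promotes sodium channel activity at the cell surface. Errfi1 encodes an inhibitor of the EGF receptor that is also induced by growth factors, as is Dusp1.

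The receptor's element was looked for in the promoters, because the genes were grouped by their induction through it. In RefSeq promoter windows of the assembly GRCm38.p6, each running from 250 bases before to 50 after a gene's start, 16 windows matched 8 of the 10 genes; Zbtb16 and Angptl4 were not matched. The element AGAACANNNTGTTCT, which reads the same on both strands, occurred in 3 of 32851 windows (0.00913%), and 1 of these belonged to Sgk1. The 6-base half-site, AGAACA or TGTTCT, occurred in 19% of all windows and in 4 of the 16 member windows (25%), which belonged to Sgk1 and Tsc22d3. The stretch with the whole element of Sgk1 and the one with the single half-site of Tsc22d3 are printed 5′ to 3′ on the strand of the gene, with these matches in capitals. The 3 further half-sites of Sgk1 windows are not printed whole, and 1 of them, at position -242 from the start, is cut by the beginning of the printed stretch. The Sgk1 stretch lies at chr10:21993651-21993765 on the plus strand and the Tsc22d3 stretch at chrX:140600652-140600757 on the minus strand.
Sgk1: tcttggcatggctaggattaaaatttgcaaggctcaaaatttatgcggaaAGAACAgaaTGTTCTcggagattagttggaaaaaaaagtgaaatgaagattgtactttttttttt
Tsc22d3: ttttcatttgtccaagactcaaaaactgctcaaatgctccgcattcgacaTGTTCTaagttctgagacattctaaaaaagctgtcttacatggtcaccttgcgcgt
A match is a stretch of letters, not a site shown to be bound, and windows without one may have elements farther from the start.

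All 10 genes lay above the background of these arrays. The background was taken as the 95th percentile, 3.99, of all single-array signals of 1324 odorant and vomeronasal receptor genes. The mean signal of 53.1% of genes exceeded it. Noxo1 itself was close to that background: its mean signal in septa was 3.74 in wild-type and 2.42 in knockout mice, a difference of -1.31 (SE 0.32) that had the lowest p of all genes in that comparison but an adjusted p of 1. In vessels the means were 4.03 and 3.19 (difference -0.84, adjusted p = 0.979), and the array labelled knockout control 8 months replicate 4 read 7.03. Whether the probe lies in the deleted part of the gene is not known. The labelled tissues carried their markers, since 8 of 8 smooth muscle genes were higher in vessels and 6 of 6 type 1 and 7 of 7 type 2 pneumocyte genes were higher in septa. In 2 mice, both controls of 8 months, the genes that mark sex differed between the 2 tissues. One is labelled knockout and gave septa replicate 2 (Noxo1 at 3.63) and the vessel replicate 4 that read 7.03; the other is labelled wild type and gave septa replicate 4 (2.41) and vessel replicate 2 (5.88). The labels were kept, whether arrays were exchanged was not tested, and the tissue, time and same-mouse results are also given without these 2 mice. A female pattern was seen in 6 of 19 septa arrays at 3 months and 8 of 20 at 8 months, and in 4 of 19 control and 10 of 20 smoke arrays. By genotype it was seen in 5 of 19 wild-type and 9 of 20 knockout septa arrays. At 3 months these were 1 of 4 wild-type control, 0 of 5 wild-type smoke, 2 of 5 knockout control and 3 of 5 knockout smoke arrays. At 8 months they were 1 of 5, 3 of 5, 0 of 5 and 4 of 5 in the same order.

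**Figure D1:**
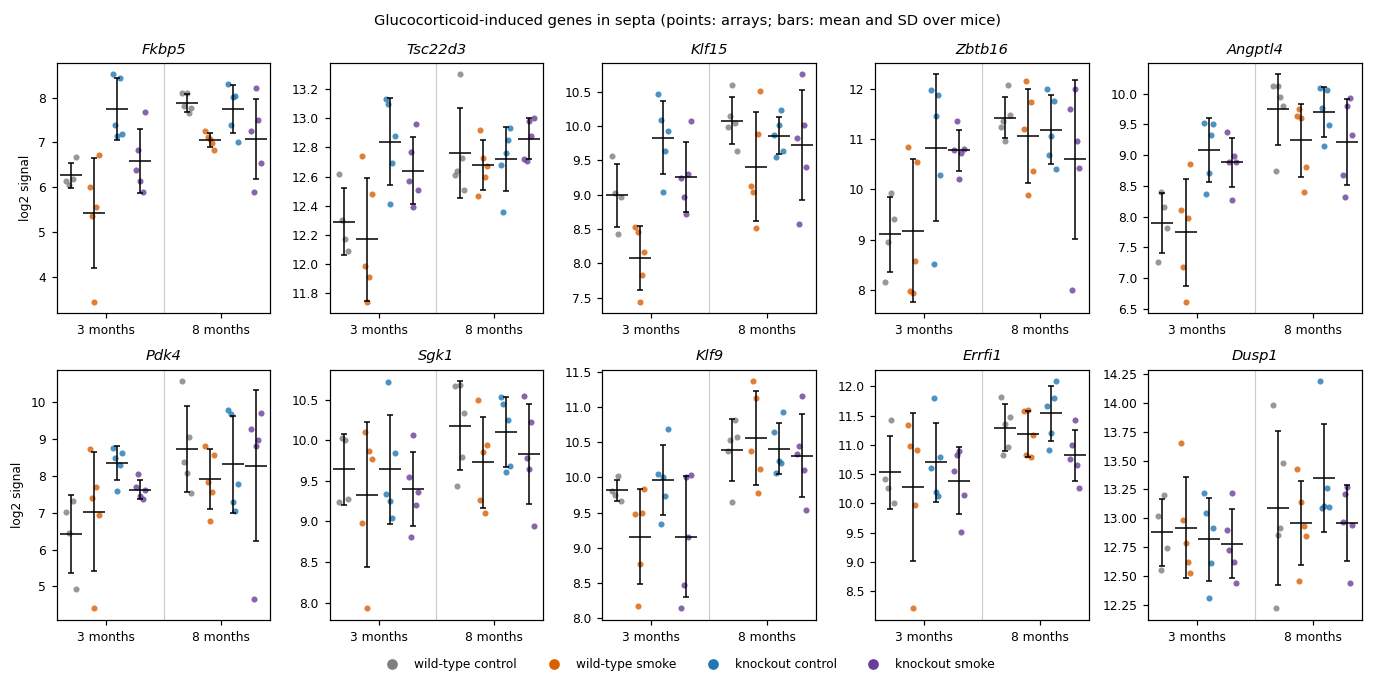
Log2 signal of the 10 genes in septa, 1 panel per gene, at 3 and 8 months; points are arrays (1 per mouse), bars the mean and SD, and colours the 4 combinations of genotype and exposure. At 3 months the means of both wild-type groups (grey and orange) lie below those of both knockout groups (blue and purple) for Fkbp5, Tsc22d3, Klf15, Zbtb16, Angptl4 and Pdk4. At 8 months the genotypes differ by 0.47 or less within an exposure.

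In septa, 6 of the 10 genes rose between 3 and 8 months: Fkbp5, Klf15, Zbtb16, Angptl4, Klf9 and Errfi1. The difference was the mean over the 4 combinations of genotype and exposure, tested with limma across all genes. The adjusted p was below 0.05 for 3.5% of all genes, 2.23% of genes being higher and 1.27% lower at 8 months. The median difference of the 10 genes was 0.81 on the log2 scale, against 0.02 for all genes, and all 10 were above 0. At an unadjusted p below 0.05 there were 9 of the 10, against 15.8% of all genes. The same 6 genes passed when the 2 mice of discordant sex pattern were left out.

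Angptl4 showed the lowest adjusted p. Its log2 signal ran from 6.61 through a median of 8.40 to 9.52 in the 19 septa arrays of 3 months, and from 8.32 through 9.68 to 10.12 in the 20 arrays of 8 months. The times overlapped, but 19 of the 20 arrays of 8 months lay above the median of 3 months, and 12 lay above its highest array. The difference was 1.07 (SE 0.18), 2.1-fold, with an adjusted p of 0.000351.

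The transcription factors rose by similar amounts. Klf9, a factor also tied to thyroid hormone and daily rhythm, ran from 8.14 through 9.73 to 10.69 at 3 months and from 9.54 through 10.37 to 11.37 at 8 months. In 18 of the 20 arrays of 8 months it lay above the median of 3 months, and it was 1.86-fold higher (log2 difference 0.89, SE 0.17, adjusted p = 0.0014). Klf15, a regulator of amino acid and lipid use, ran from 7.44 through 9.02 to 10.47 at 3 months and from 8.51 through 9.88 to 10.75 at 8 months. Here too 18 of 20 lay above the earlier median, and the rise was 1.65-fold (0.73, SE 0.17, adjusted p = 0.00907). Zbtb16, or PLZF, ran from 7.93 through 10.28 to 11.98 at 3 months and from 7.99 through 11.23 to 12.15 at 8 months. The lowest arrays of the 2 times were nearly equal, and the difference was 1.10 (SE 0.30), 2.14-fold, with an adjusted p of 0.0277. It missed the threshold in a fit without wild-type control 3 months septa replicate 1 (1.02, adjusted p = 0.0536), and in 1 fit over both tissues with the mouse as a block (1.10, adjusted p = 0.109).

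The feedback chaperone Fkbp5 ran from 3.43 through 6.39 to 8.52 in septa at 3 months and from 5.89 through 7.44 to 8.31 at 8 months. The highest array was one of 3 months, but 19 of 20 arrays of 8 months exceeded the median of 3 months, and the rise was 1.92-fold (0.94, SE 0.23, adjusted p = 0.0104). Errfi1 ran from 8.21 through 10.56 to 11.79 at 3 months and from 10.26 through 11.19 to 12.09 at 8 months. Again 19 of 20 exceeded the earlier median, and the rise was 1.66-fold (0.73, SE 0.19, adjusted p = 0.0202).

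The other 4 genes did not pass in septa. The difference was 0.27 for Tsc22d3 (adjusted p = 0.0742), 0.95 for Pdk4 (0.143), 0.46 for Sgk1 (0.168) and 0.24 for Dusp1 (0.33). Pdk4 had a difference close to that of Fkbp5 and ran from 4.40 to 8.76 at 3 months and from 4.65 to 10.58 at 8 months. A single array decided its call: without knockout smoke 8 months replicate 2, at 4.65, the difference was 1.17 with an adjusted p of 0.0174. Tsc22d3 passed when any of 3 septa arrays was left out: knockout control 8 months replicate 2 (adjusted p = 0.0481), wild-type smoke 3 months replicate 1 (0.0278) or wild-type control 3 months replicate 1 (0.0496).

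In vessels all 10 differences between 3 and 8 months were again above 0, but Tsc22d3 was the 1 gene that passed, where 1.27% of all genes passed (1.02% higher, 0.246% lower). Its log2 signal ran from 10.89 through 11.58 to 12.34 in the 19 arrays of 3 months and from 11.47 through 12.13 to 12.43 in the 18 of 8 months. In 17 of these 18 it lay above the median of 3 months, and the rise was 1.31-fold (0.39, SE 0.10, adjusted p = 0.0481). This call sat at the threshold: it was lost when any of 27 of the 37 arrays was left out (adjusted p from 0.0297 to 0.0865 over all 37), without the 2 mice of discordant sex pattern (0.36, adjusted p = 0.1), and with the replicate number of the labels as a block (0.39, adjusted p = 0.0565).

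The remaining vessel differences were of the order of those in septa, with wider errors. They were 1.04 for Pdk4 (adjusted p = 0.215), 0.89 for Zbtb16 (0.254), 0.83 for Klf9 (0.0651), 0.64 for Angptl4 (0.314) and 0.58 for Klf15 (0.152). Sgk1 differed by 0.56 (0.193), Fkbp5 by 0.52 (0.315), Dusp1 by 0.46 (0.251) and Errfi1 by 0.33 (0.474). Klf9 passed in 1 fit over both tissues with the mouse as a block (0.85, adjusted p = 0.00782), which kept the 2 vessel arrays of 1 mouse apart. It also passed with array weights (0.0278) and with those 2 arrays, averaged in the main vessel fit, as replicates (0.0487). The median was 0.57, and 9 of the 10 had an unadjusted p below 0.05, against 13.9% of all genes. The median residual SD over all genes was 0.98 in vessels and 0.738 in septa. The change with time was not shown to differ between the tissues: in the test of that difference no member passed (limma), while 0.0338% of all genes did, and 0 members had an unadjusted p below 0.05, against 8.47% of all genes.

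**Figure D2:**
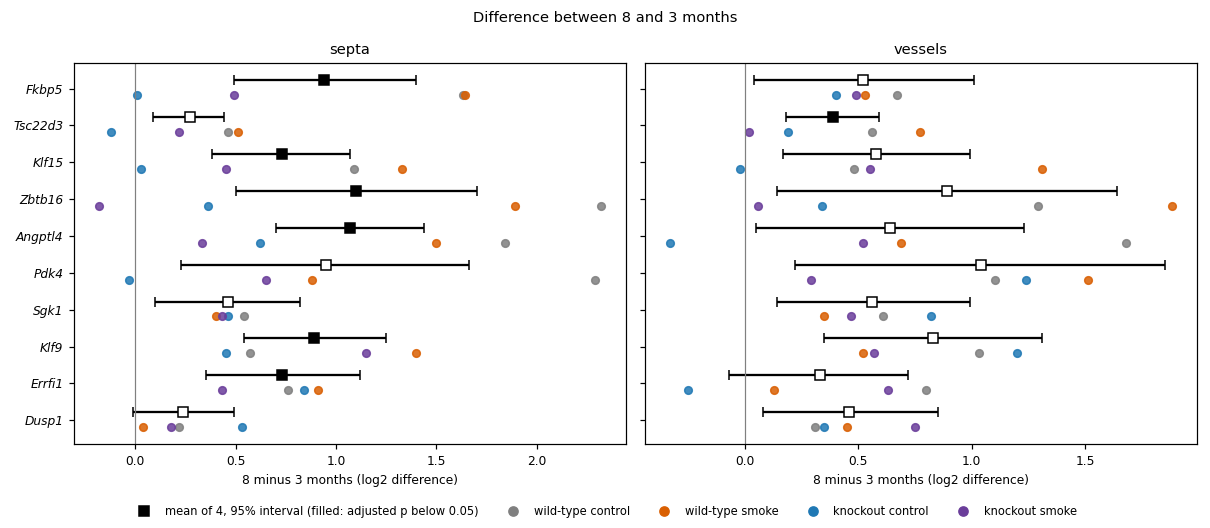
Difference between 8 and 3 months (log2) for each gene in septa and vessels. Squares are the mean over the 4 combinations of genotype and exposure with its 95% interval, filled where the adjusted p was below 0.05 (6 genes in septa, Tsc22d3 in vessels), and circles are the 4 combinations, which spread most widely for Zbtb16 and Pdk4.

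Some further targets of the receptor rose as well. For 22 further glucocorticoid targets the median difference between 3 and 8 months in septa was 0.47, with 3 of the 22 below 0. Of the 22, 7 rose and none fell, where 2.23% of all genes rose and 1.27% fell. Among them were Cebpd, a transcription factor of the acute-phase response (0.79, adjusted p = 0.000225), Glul, glutamine synthetase (0.67, 0.00187), the sulfotransferase gene Sult1a1 (0.91, 0.00386) and Il1r2, a decoy receptor for interleukin 1 (2.00, 0.00707). In vessels 5 of the 22 rose and none fell, where 1.02% of all genes rose and 0.246% fell. Among the 5 were Glul (0.64), Cebpd (0.72), the mTOR inhibitor gene Ddit4 (1.26) and the metallothionein gene Mt2 (0.87). The receptor's own gene Nr3c1 had a difference of 0.25 in septa (adjusted p = 0.487), and Hsd11b1 one of -0.06. Of 15 measured genes for the receptor, its chaperones and steroid handling, the chaperone gene Hsp90ab1 (0.42) and the coactivator gene Ncoa2 (0.63) rose in septa and the transporter gene Abcb1a fell (-1.11), with 7 of the 15 above 0 and 8 below.

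Genes of neighbouring programmes that share members' signals did not pass in septa: none of 15 PPAR and fasting targets (3 at an unadjusted p below 0.05; lowest p for Acadm, 0.59, adjusted p = 0.101, and Plin5, 0.96, 0.195). None of 16 immediate early genes passed (3 unadjusted; Klf4, 0.40, 0.11, and Ccn1, 0.58, 0.17), and none of 15 clock genes (2 unadjusted; Nr1d1, -0.89, 0.157, and Bhlhe40, 0.87, 0.192). Of all genes, 3.5% passed in septa and 15.8% had an unadjusted p below 0.05, so these counts do not set the lists apart. In vessels Klf4 was the 1 immediate early gene that rose (0.78), where 1.02% of all genes rose.

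Markers of other cells also moved with time. In septa 4 of 6 neutrophil genes rose (Mmp8 2.15, S100a8 1.32, Retnlg 1.29 and S100a9 0.75), and the mean log2 signal of the list ran from 8.78 through 11.18 to 12.39 at 3 months and from 11.08 through 12.09 to 13.18 at 8 months. In vessels 2 of 6 rose (Mmp8 3.43 and Retnlg 3.09), and the list ran from 5.61 through 8.06 to 11.20 and from 7.80 through 10.19 to 11.78. Of 7 alveolar macrophage genes 1 rose in septa (Chil3 1.93), the list running from 3.65 through 5.59 to 7.26 and from 4.85 through 6.61 to 8.73. Their part in the differences of the members and of Il1r2 was not tested. In bulk tissue, fewer cells of a type and less RNA per cell cannot be told apart.

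Split by genotype and exposure, the difference between 3 and 8 months in septa was larger in both wild-type than in both knockout combinations for Fkbp5, Tsc22d3, Klf15, Zbtb16, Angptl4 and Pdk4. For Pdk4 the smoke-exposed genotypes lay close (0.88 in wild type and 0.65 in knockouts). In wild-type controls Fkbp5 read 6.13, 6.04, 6.19 and 6.67 at 3 months and 8.10, 7.81, 8.11, 7.66 and 7.77 at 8 months. The groups did not overlap, and the difference was 1.63 (adjusted p = 0.224). Klf15, Zbtb16, Angptl4 and Pdk4 did not overlap there either, with differences of 1.09, 2.32, 1.84 and 2.29; 1.37% of all genes were higher at 8 months without overlap. In wild-type smoke mice Fkbp5 read 6.00, 5.35, 3.43, 5.56 and 6.72 at 3 months and 7.25, 7.11, 7.07, 6.99 and 6.83 at 8 months, again without overlap (1.64; 0.792% of all genes). The wild-type smoke differences of Klf15 (1.33), Zbtb16 (1.89), Angptl4 (1.50) and Klf9 (1.40) left some overlap. None of the 10 genes passed within any of the 4 combinations in septa (limma), where 0.0773% of all genes passed in wild-type smoke mice and none in the others. At an unadjusted p below 0.05 there were 6 members in wild-type controls (7.5% of all genes), 7 in wild-type smoke (9.35%), 2 in knockout control (6.97%) and 1 in knockout smoke mice (8.17%).

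In knockout controls the same differences were smaller for these genes: 0.01 for Fkbp5, 0.36 for Zbtb16 and 0.62 for Angptl4. Fkbp5 read 8.52, 7.40, 7.15, 8.45 and 7.18 at 3 months and 8.31, 7.38, 8.01, 8.04 and 7.00 at 8 months, so that it was as high at 3 months as at 8. The test of the difference between genotypes did not pass for any gene (limma, 0 of all genes). At an unadjusted p below 0.05 there were 5 members, against 4.73% of all genes, each with a smaller change in knockouts: Zbtb16 (-2.02, adjusted p = 0.967), Fkbp5 (-1.38, 0.978), Angptl4 (-1.19, 0.978), Klf15 (-0.97, 0.995) and Tsc22d3 (-0.44, 0.995). In vessels Tsc22d3 was the 1 member with an unadjusted p below 0.05 in that test (-0.56), against 4.77% of all genes.

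In vessels the groups of 3 and 8 months did not overlap for Klf9 in wild-type controls (0.845% of all genes) and knockout controls (1.13%), and for Tsc22d3 in wild-type smoke mice (1.79%). In knockout controls Klf9 read 9.34, 9.78, 9.73 and 9.38 at 3 months and 10.23, 10.46, 9.99, 11.55 and 11.54 at 8 months. Tsc22d3 in wild-type smoke mice read 11.41, 10.94, 11.61, 11.51 and 11.26 at 3 months and 11.91, 12.20, 11.92 and 12.43 at 8 months.

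**Figure D3:**
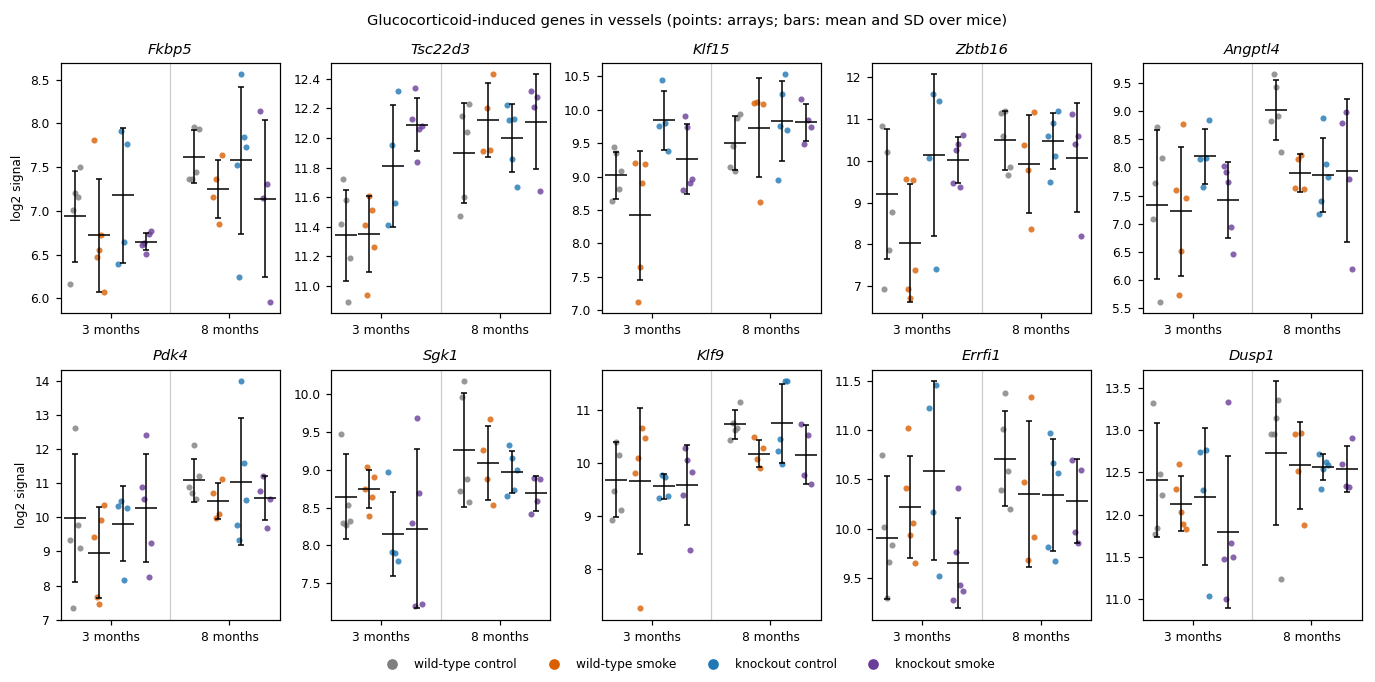
Log2 signal of the 10 genes in vessels, drawn as for septa; points are arrays, bars the mean and SD over mice. Most groups overlap within a time. Among pairs that differ in genotype only or exposure only, the exceptions are Tsc22d3 between the smoke-exposed genotypes of 3 months and Angptl4 between the wild-type exposures of 8 months. Tsc22d3 holds the narrowest range, and Pdk4 runs from 7.33 to 14.00.

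The Noxo1 genotype was compared over both exposures and both times, to ask whether loss of the oxidase subunit changed the genes. No gene of the array passed in septa or in vessels (limma, 0 of 20710 in each). In septa 5 members had an unadjusted p below 0.05, against 3.98% of all genes, each higher in knockouts: Zbtb16 by 0.65, Fkbp5 by 0.63, Angptl4 by 0.56, Klf15 by 0.53 and Tsc22d3 by 0.29, all with an adjusted p of 1. In vessels there were 4, against 4.86%: Zbtb16 (0.77), Klf15 (0.52) and Tsc22d3 (0.33, adjusted p = 0.876) were higher and Sgk1 (-0.43) lower in knockouts.

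In septa the genotypes lay farther apart at 3 months than at 8 for several of the genes, although the test of that difference did not pass. Among septa controls of 3 months, Pdk4 read 7.01, 6.46, 7.32 and 4.94 in wild type and 8.76, 8.49, 7.59, 8.30 and 8.61 in knockouts. Neither Pdk4 (difference 1.92) nor Fkbp5 (1.48) overlapped between the genotypes there, where 0.599% of all genes were higher in knockouts without overlap. Zbtb16 differed by 1.72, Angptl4 by 1.17, Klf15 by 0.84 and Tsc22d3 by 0.55, and these 6 genes had an unadjusted p below 0.05, against 3.07% of all genes, with an adjusted p of 1.

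Among smoke-exposed septa of 3 months, Klf15 read 8.53, 8.46, 7.44, 7.83 and 8.16 in wild type and 9.25, 8.96, 8.72, 9.30 and 10.08 in knockouts. It did not overlap (1.18; 0.396% of all genes), and Zbtb16 (1.60), Fkbp5 (1.17), Angptl4 (1.14) and Tsc22d3 (0.47) were higher in knockouts with some overlap. These 5 had an unadjusted p below 0.05, against 5.05% of all genes, and none passed after adjustment. In smoke-exposed vessels of 3 months, Tsc22d3 read 11.41, 10.94, 11.61, 11.51 and 11.26 in wild type and 12.13, 12.34, 11.84, 12.06 and 12.08 in knockouts, without overlap (0.74; 0.444% of all genes). In septa of 8 months the 10 differences between genotypes lay between -0.40 and 0.26 in controls and between -0.47 and 0.38 in smoke-exposed mice. In vessels of 8 months Angptl4 lay lower in knockout controls (-1.15, adjusted p = 0.999), and the other differences lay between -0.37 and 0.33 in controls and all 10 between -0.40 and 0.16 in smoke-exposed mice.

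Smoke was compared with control over both genotypes and both times. No gene of the array passed in either tissue (limma, 0 of 20710), while 7.7% of genes in septa and 5% in vessels had an unadjusted p below 0.05. In septa all 10 members were below 0, with a median of -0.33 against -0.03 for all genes, and 2 had an unadjusted p below 0.05: Fkbp5 (-0.88, SE 0.23, adjusted p = 0.448) and Klf15 (-0.57, adjusted p = 0.551). In vessels 9 of 10 were below 0, with a median of -0.27, and none had an unadjusted p below 0.05.

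Fkbp5 separated the exposures within 1 pair of groups. In wild-type septa of 8 months it read 8.10, 7.81, 8.11, 7.66 and 7.77 in controls and 7.25, 7.11, 7.07, 6.99 and 6.83 after smoke. The arrays did not overlap, which held for 0.43% of all genes in that direction. In wild-type vessels of 8 months the same was true of Angptl4, at 8.82, 9.65, 9.43, 8.92 and 8.27 in controls and 7.64, 8.15, 8.22 and 7.61 after smoke (0.729% of all genes). In neither pair did a member have an unadjusted p below 0.05, as 5.79% of all genes did in these septa and 2.94% in these vessels.

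None of the 10 genes passed in any of 9 tests of whether an effect depended on another factor (smoke by time, smoke by genotype and time by genotype in each tissue, and tissue by smoke, time and genotype). Klf9 in septa was the 1 member with an unadjusted p below 0.05 for smoke by time (0.77, adjusted p = 0.817), against 5.95% of all genes. Fkbp5 was the 1 for tissue by genotype (-0.65, adjusted p = 0.999), against 4.59%. No member had an unadjusted p below 0.05 for smoke by genotype in septa (3.8% of all genes) or vessels (4.38%), for smoke by time in vessels (5.02%) or for tissue by smoke (6.18%; 0.00966% of all genes passed after adjustment).

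The order of the 8 groups within a tissue followed from these values. In septa the highest mean was that of wild-type controls of 8 months for 6 genes: Fkbp5 (7.89), Klf15 (10.08), Zbtb16 (11.43), Angptl4 (9.74), Pdk4 (8.73) and Sgk1 (10.18). The lowest was that of wild-type smoke mice of 3 months for 7 genes: Fkbp5 (5.41), Tsc22d3 (12.17), Klf15 (8.08), Angptl4 (7.74), Sgk1 (9.33), Klf9 (9.16) and Errfi1 (10.28). Most neighbours in each order did not differ beyond their spread, since of the 7 gaps between neighbouring means at most 1 per gene and tissue exceeded the larger of the 2 SDs. For Klf15 in septa that gap was between wild-type controls and wild-type smoke mice of 3 months.

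Vessels and septa differed for 7 of the 10 genes, where 28.9% of all genes did (12.7% higher and 16.2% lower in vessels). The test used all 76 arrays with the mouse as a random block. Pdk4 was the 1 gene that was higher in vessels, and Tsc22d3, Zbtb16, Angptl4, Sgk1, Errfi1 and Dusp1 were lower. The same 7 were called when the 2 mice of discordant sex pattern were left out.

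Pdk4 ran from 4.40 through a median of 7.69 to 10.58 in septa and from 7.45 through 10.47 to 14.00 in vessels of the 35 mice measured in both. Vessels were higher in 35 of 35 mice (33 of 33 without the 2 of discordant sex pattern), by 0.27 to 6.17, and the fitted difference was 2.40 (SE 0.28), 5.28-fold, with an adjusted p of 4.44e-11. Markers of heart muscle and fat, tissues rich in Pdk4, were also found in vessels: 8 of 9 heart muscle and 4 of 7 adipocyte genes were higher there. The mean log2 signal of the heart muscle list lay between 2.39 and 4.13 in septa and reached 11.58 in vessels of 3 months and 12.06 in vessels of 8 months. That of the adipocyte list lay between 2.14 and 3.49 in septa and reached 7.91 and 8.11 in vessels. The medians of these lists in vessels were 3.77 and 3.82 for heart muscle and 2.77 at both times for adipocytes. Their part in the Pdk4 difference was not tested.

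Tsc22d3 was lower in vessels in 35 of 35 mice (33 of 33 without those 2), running from 11.74 through 12.68 to 13.30 in septa and from 10.89 through 11.92 to 12.43 in vessels. The tissues overlapped across mice but never within a mouse, with a difference of -0.78 (adjusted p = 1.33e-16). Angptl4 ran from 6.61 through 8.88 to 10.12 in septa and from 5.61 through 7.91 to 9.65 in vessels, lower in 34 of 35 mice (-1.06, adjusted p = 2.59e-07). Sgk1 ran from 7.93 through 9.77 to 10.72 in septa and from 7.20 through 8.73 to 10.17 in vessels. It was lower in vessels in 33 of 35 mice (-1.02, adjusted p = 2.88e-09).

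The other 3 called genes differed by less than 1 log2 unit, as did Tsc22d3. Errfi1 was lower in vessels in 31 of 35 mice (-0.59, adjusted p = 0.000458), Dusp1 in 29 (-0.61, 1.08e-05) and Zbtb16 in 29 (-0.76, 0.0127). Zbtb16 varied most within a mouse among these, from -4.06 to 1.56. Fkbp5, Klf15 and Klf9 did not pass, with differences of 0.17 (95% interval -0.14 to 0.49), 0.03 (-0.23 to 0.28) and 0.06 (-0.23 to 0.35). They were higher in vessels in 18, 19 and 20 of the 35 mice.

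Of the steps before the receptor's targets, the enzyme genes were lower in vessels and the receptor gene did not pass. Hsd11b1 was lower by a log2 difference of -1.99 (adjusted p = 1.9e-19) and H6pd by -0.79 (2.67e-06), while Nr3c1 had a difference of -0.14 (adjusted p = 0.564). Other targets went both ways, with the metallothionein genes Mt1 (1.99) and Mt2 (2.05) higher and Il1r2 (-3.55) lower in vessels. The neutrophil list, 6 of 6 lower in vessels, moved with Il1r2; its part was not tested.

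**Figure D4:**
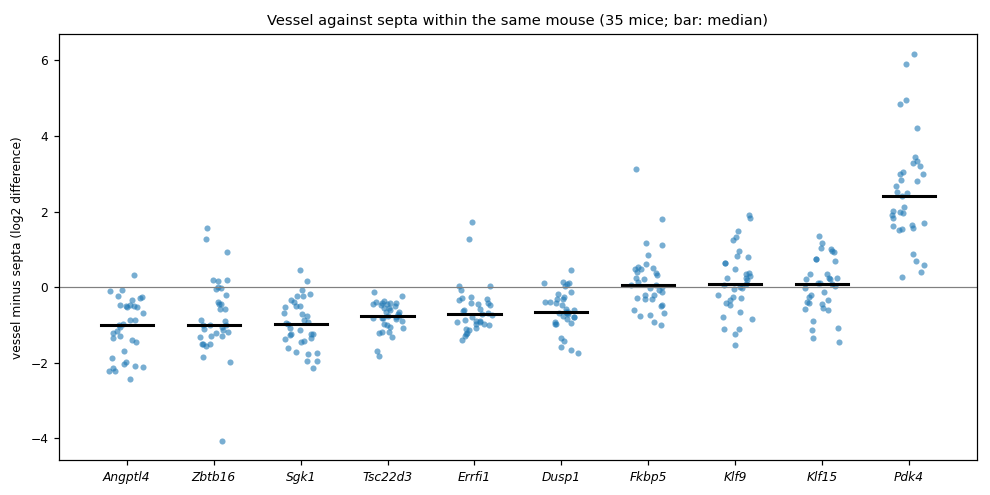
Vessel minus septa signal (log2) within the same mouse for each gene; points are 35 mice, the bar is their median, and genes are ordered by it. Pdk4 lies above 0 in all 35 mice and Tsc22d3 below 0 in all 35, while Fkbp5, Klf15 and Klf9 straddle 0.

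The spread within groups was wide for some of these genes and narrow for others. It includes the noise of amplification and arrays. The SD within groups was smallest for Tsc22d3, at 0.266 in septa and 0.29 in vessels, where 3.53% and 3.13% of genes above background had a smaller one. It was largest for Pdk4 (1.23 and 1.32), followed by Zbtb16 (1.06 and 1.21). A smaller SD was found in 87.7% and 62.7% of those genes for Pdk4, and in 78% and 56.2% for Zbtb16. The median SD of genes above background was 0.746 in septa and 1.11 in vessels. Genes were not matched for signal in these shares, and the mean signal of Tsc22d3 was 12.24, above that of 98.5% of genes. Some mice were low for several genes at once. The knockout smoke mouse of 8 months that gave septa replicate 2 and vessel replicate 4 was the lowest of its group in both tissues for Fkbp5 (5.89 and 5.96), Zbtb16 (7.99 and 8.19) and Angptl4 (8.32 and 6.20). Its Pdk4 was 4.65 in septa but 10.54 in vessels. The wild-type smoke mouse of 3 months that gave replicate 3 in both tissues was the lowest of its septa group for Fkbp5 (3.43), Klf15 (7.44), Angptl4 (6.61), Pdk4 (4.40), Sgk1 (7.93) and Errfi1 (8.21).

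After the group means were removed, pairs of the 10 genes had a median Pearson correlation of 0.27 over the 39 mice in septa (39 of 45 pairs above 0) and 0.17 over the 36 mice in vessels (24 of 45 above 0). With all other genes the members' median was 0.02 and 0.01. These correlations describe genes read on the same arrays and carry no test. The highest pair in septa was Fkbp5 with Zbtb16 (0.65), followed by Sgk1 with Errfi1 (0.60) and Fkbp5 with Angptl4 (0.59). In vessels it was Sgk1 with Dusp1 (0.67), and the lowest was Tsc22d3 with Dusp1 (-0.61).

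Of the 10 genes, 9 were put into 2 sets, chosen after the values were seen. Fkbp5, Tsc22d3, Klf15, Zbtb16, Angptl4 and Pdk4 had a median among themselves of 0.41 in septa and 0.35 in vessels. Sgk1, Errfi1 and Dusp1 had 0.50 and 0.65. Between the sets it was 0.14 and -0.18. Because of that choice, a lower median between than within the sets is not evidence that the sets are distinct. Klf9 was in neither set: its median was 0.14 and 0.23 with the 6, and 0.04 and -0.10 with the 3. Against the 16 immediate early genes, the 3 had a median of 0.30 in septa and 0.47 in vessels, and the 6 had -0.14 and -0.24.

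The genes most like the members' mean pattern within groups were, in septa, Rasgef1b (Pearson 0.72, Spearman 0.60), Tbc1d23 (0.71, 0.50), Pmvk (0.71, 0.62), Glul (0.70, 0.68) and Akr1c14 (0.68, 0.42). In vessels they were Proca1 (0.64, 0.59), Ercc1 (0.63, 0.64), Rc3h2 (0.62, 0.67), Dlst (0.62, 0.57) and Slc25a46 (0.62, 0.65). They were taken from 10996 other genes above background, over 39 and 36 mice, as a description. Glul was also among the glucocorticoid targets listed separately.

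Because 35 mice gave both tissues, the deviation of each mouse from its group mean could be set between septa and vessels. It tells whether a mouse that was high in one tissue was high in the other. Each correlation was tested by 100000 permutations within groups, two-sided, and adjusted over the 11006 genes above background; no gene passed (0%). The members' median r was 0.50, against 0.04 for all genes, the middle 95% of which ran from -0.33 to 0.44.

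Errfi1 (r = 0.59, permutation p = 0.00061, adjusted p = 0.28; rho = 0.64, permutation p = 0.00019, adjusted p = 0.232) and Angptl4 (r = 0.59, permutation p = 0.00074, adjusted p = 0.28; rho = 0.56, permutation p = 0.00198, adjusted p = 0.411) had the highest values. Zbtb16 followed with r = 0.58 (permutation p = 0.00894, adjusted p = 0.571; rho = 0.62, permutation p = 0.00224, adjusted p = 0.433) and Fkbp5 with r = 0.57 (permutation p = 0.00553, adjusted p = 0.48; rho = 0.58, permutation p = 0.00274, adjusted p = 0.447). Dusp1 had r = 0.55 (permutation p = 0.00163, adjusted p = 0.337; rho = 0.53, permutation p = 0.00234, adjusted p = 0.44). These 5 genes kept r between 0.56 and 0.70 without the 2 mice farthest from the median in septa.

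Sgk1 had r = 0.44 (permutation p = 0.00577, adjusted p = 0.48; rho = 0.40, permutation p = 0.0221, adjusted p = 0.712) and 0.38 without those 2 mice. Pdk4 had r = 0.40 (permutation p = 0.015, adjusted p = 0.635; rho = 0.49, permutation p = 0.00675, adjusted p = 0.55) and 0.42 without them. Klf15 had r = 0.17 (permutation p = 0.382, adjusted p = 0.934; rho = 0.12, permutation p = 0.539, adjusted p = 0.969), Klf9 r = 0.16 (permutation p = 0.458, adjusted p = 0.947; rho = 0.14, permutation p = 0.468, adjusted p = 0.964) and Tsc22d3 r = 0.02 (permutation p = 0.94, adjusted p = 0.997; rho = 0.07, permutation p = 0.704, adjusted p = 0.984). Tsc22d3, which was lower in vessels in every mouse, thus had the r nearest 0.

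Within each time the correlations were higher at 8 months, over 18 mice, than at 3 months, over 17, for Fkbp5 (0.81 and 0.42), Errfi1 (0.82 and 0.52), Zbtb16 (0.76 and 0.47), Angptl4 (0.65 and 0.55), Dusp1 (0.65 and 0.49) and Pdk4 (0.49 and 0.34). The same held for Klf15 (0.29 and 0.05). They were lower at 8 months for Sgk1 (0.18 and 0.60), Tsc22d3 (-0.18 and 0.16) and Klf9 (0.04 and 0.23). These differences between times were not tested. Without the 2 mice of discordant sex pattern r was 0.50 for Sgk1 in place of 0.44, and for the other 9 genes it moved by 0.03 or less.

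Other genes also went together between the tissues of a mouse. The highest r of all genes was that of the immediate early gene Egr1 (r = 0.82, permutation p = 1e-05, the smallest the permutations can give, adjusted p = 0.0734). Other high values were those of the clock gene Dbp (0.78), the immediate early genes Nr4a1 (0.78) and Fos (0.74), and Xist (0.76), which marks sex. The Y-linked gene Eif2s3y had 0.68, and the haemoglobin genes Hbb-bs, Hba-a2 and Hba-a1 had 0.65, 0.62 and 0.61. Several groups held both sex patterns, and the part of sex or blood in these correlations was not tested. The median r was 0.48 over 16 immediate early genes, 0.46 over 6 neutrophil genes, 0.31 over the other glucocorticoid targets, 0.24 over clock genes and 0.02 over PPAR and fasting targets.

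**Figure D5:**
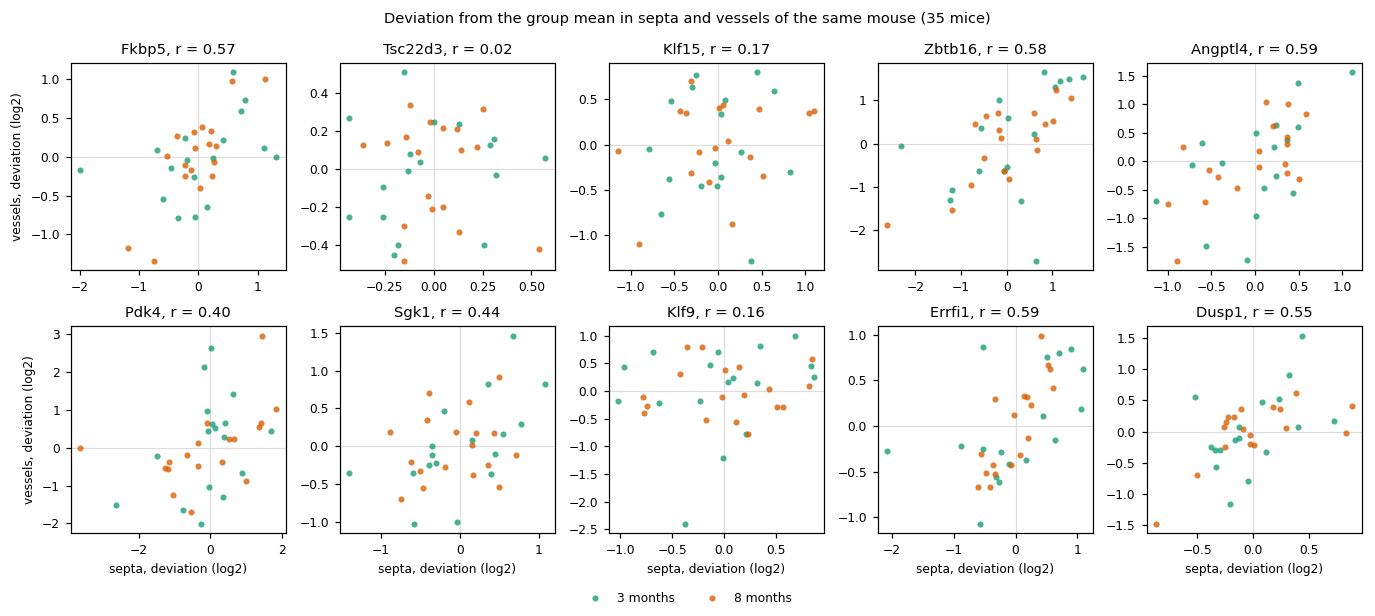
Deviation of each mouse from its group mean (log2) in vessels against septa, 1 panel per gene; points are 35 mice, coloured by time, with Pearson's r in the title. Points rise from lower left to upper right for Errfi1, Angptl4, Zbtb16, Fkbp5 and Dusp1 (r from 0.55 to 0.59), and show little slope for Tsc22d3, Klf9 and Klf15 (r from 0.02 to 0.17).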

How the data were processed

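Per the labels, amplified total RNA (Ovation PicoSL WTA kit) was Cy5-labelled for single-colour hybridisation. The authors deposited log2 signals, with limma (version not given) named in the submitters' processing notes; array medians already lay between 3.19 and 3.192, so no further normalization was applied. Of 62976 features, 31465 had a gene symbol; symbols were updated through RefSeq (2933 changed), and 671 features with an empty cell were left out. Of several probes per gene (6007 genes) the one with the highest mean over all 76 arrays was kept. The 2 vessel arrays of 1 mouse (wild-type control 3 months replicates 2 and 5) were averaged to 1 replicate in the fits within vessels. Fits over both tissues kept them as separate arrays.

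Within each tissue, limma 3.58.1 (R 4.3.3; lmFit, eBayes with trend) was fitted to the 8 groups over 20710 genes, with Benjamini-Hochberg adjustment and a threshold of 0.05. Tissues were compared over all arrays with the mouse as a random block (correlation 0.0262). The fits were tested on simulated data. The number of arrays limits the precision; p-values measure the spread between mice, which the labels number individually.

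The members and lists were chosen with earlier results of these data known. The 10 members are described in every comparison; of other lists, up to 4 called genes with the lowest p are named, or the 2 with the lowest p where none was called. The same-mouse correlations were added after seeing the data. Deviations from group means of same-numbered replicates correlated by 0.0176 in septa and 0.0265 in vessels on average, so replicate numbers were not treated as pairs. By the same measure, septa and vessel arrays of the same mouse number correlated by 0.0365 on average, with 3 of 35 pairs above 0.1. That pairing was taken from the mouse numbers in the labels, and this measure does not set it clearly apart.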

Additional observations from a re-analysis of the deposited data

Results flagged for a closer look

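Of 160 combinations of gene and group, 12 had 1 array far from the others of its group by Dixon's criterion, where chance gives about 1 in 20. In septa these were Tsc22d3 in wild-type control 8 months replicate 3 (13.30, others 12.51 to 12.73), Angptl4 in wild-type control 8 months replicate 2 (8.74, others 9.80 to 10.12), Pdk4 in knockout smoke 8 months replicate 2 (4.65, others 8.80 to 9.71) and Dusp1 in knockout control 8 months replicate 1 (14.19, others 13.09 to 13.26).

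At 3 months in vessels they were Fkbp5 in wild-type control replicate 1 (6.16, others 7.16 to 7.25 once replicates 2 and 5, from 1 mouse, were averaged), Pdk4 in knockout control replicate 3 (8.17, others 10.26 to 10.47), Sgk1 in knockout control replicate 1 (8.97, others 7.79 to 7.92), Klf9 in wild-type smoke replicate 3 (7.26, others 9.81 to 10.66) and Dusp1 in knockout smoke replicate 3 (13.33, others 11.00 to 11.66). At 8 months in vessels they were Tsc22d3 in knockout smoke replicate 4 (11.64, others 12.21 to 12.32), Klf15 in wild-type smoke replicate 3 (8.62, others 10.08 to 10.11) and Dusp1 in wild-type control replicate 5 (11.24, others 12.95 to 13.35). Knockout smoke septa replicate 2 and vessel replicate 4 of 8 months came from 1 mouse, and wild-type control septa replicate 2 and vessel replicate 5 of 8 months from another.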

How the results depend on the processing

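Tissue calls (7 members) and the count of 0 members called for smoke, genotype and interactions (limma) were the same under every alternative run. Time in septa gave 6 or 7 members when any 1 array was left out, and 5 in 1 fit over both tissues with the mouse as a block, where Zbtb16 was lost (adjusted p = 0.109) and 225 of all genes passed in place of 725. Time in vessels gave 0 members with quantile normalization run again, 75th percentile scaling, the mean of all probes, the sex pattern as a covariate, without the 2 mice of discordant sex pattern, and with the replicate block; it gave 2, with Klf9 gained, under array weights (adjusted p = 0.0278), 1 fit over both tissues (0.00782) and both arrays of mouse 25 as replicates (0.0487), and 0 to 1 when any 1 array was left out. Klf9 also passed without wild-type smoke 3 months vessel replicate 4 (0.0463). Over all genes, time in vessels gave 148 calls without those 2 mice, 162 with the sex pattern and 1111 in 1 fit over both tissues, against 262. Smoke in vessels gave 1 call with the mean of all probes or both arrays of mouse 25, and 5 in 1 fit over both tissues, and genotype in vessels 1 in that fit, against 0. Comparisons within single pairs of groups gave 1 member under array weights, 2 in 1 fit over both tissues, and 0 to 1 when any 1 array was left out (1 without wild-type control 8 months septa replicate 2 or wild-type smoke 3 months septa replicate 5). The causes were not tested. With the replicate block no other call of a member changed; it is not evidence of pairing. Of 133 pairs of same-numbered septa arrays, 19 correlated above 0.1, and of 122 vessel pairs, 5.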
